A study of Mus musculus with 10 samples.

Results

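Plasmin is the protease that mammary epithelial cells can switch on at their surface to dissolve fibrin and matrix, and 6 genes that govern it are described here across sorted mouse mammary cells. Plau encodes urokinase and Plat tissue plasminogen activator, the proteases that cut plasminogen into plasmin. Plaur encodes the receptor that holds urokinase on the cell. Serpinb2 (PAI-2) and Serpine2 (protease nexin) encode inhibitors of the activators, and Serpinb5 encodes maspin, a clade B serpin of mammary and other epithelia that does not act as a classical protease inhibitor. The genes were taken by symbol, and all 6 matched 1 row each of the 24000 rows in every comparison table.

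In the gland, urokinase bound to its receptor and plasmin formed nearby take part in ductal growth, wound repair and the removal of tissue after lactation. Serpins act as bait: the protease cuts a reactive loop, is trapped by the folding serpin and is cleared, so the balance of activator to serpin sets how much plasmin forms. Plasminogen itself is made mainly by the liver and reaches the gland in plasma.

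RNA came from epithelial cells sorted by flow cytometry from mammary glands of female mice, all given tamoxifen (15 mg per kg in total) before isolation. The mice were Bptf wild type (WT) or Bptf knockout (KO), Bptf being the largest subunit of the NURF chromatin remodeller. The 10 libraries form 5 groups of 2, namely luminal and myoepithelial (basal) cells of each genotype and, in the knockout, cells labelled Bsecs. The sources used here do not give what Bsecs stands for, the Cre driver, the age of the mice, whether animals were pooled or whether the 2 libraries of a group came from separate animals, and a source label of the KO luminal libraries names WT mice. The tables give 1 column of mean normalised counts per group, and their values are 100% whole multiples of 1 read (within 0.01 of a count), so counts per column were recovered and no spread between libraries can be given. Whether a column holds 1 library or both of its group is not stated. Column totals ran from 2036681 to 3840462 counts, of which the ribosomal RNA gene Rn45s took 9.76% to 32.2%. The basal columns swap genotype names between tables, so they are called the smaller (2036681 counts) and the larger (2359861) and no difference between them is read as a knockout effect. Bptf itself had 640 counts in the column labelled WT luminal and 1018 in that labelled KO luminal, a fold of KO over WT of 1.27 (1.15 to 1.40), and 645 in Bsecs, 420 in the smaller basal and 780 in the larger basal column. The gene's whole count was thus not lower in the column labelled KO, and since the deleted part is not stated it does not check the label. KO luminal and WT luminal are used below as the labels of those columns only.

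All p-values compare 1 column with 1 column and so describe these sorted populations as sequenced, not the genotypes or cell types. Intervals are 95% counting intervals and leave out variation between mice and the copying of molecules in PCR. Levels below are normalised counts on 1 scale for all 5 columns, and folds are those of the authors' deposited means in each table. In sorted bulk RNA, fewer cells that express a gene and less of its RNA per cell cannot be told apart.

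The epithelial markers separated the columns in the way their cell type labels say. The 8 luminal markers summed to 58392 and 52817 normalised counts in the WT and KO luminal columns and to 3940 (larger) and 4380 (smaller) in the basal ones. The 8 myoepithelial markers summed to 97.3 and 359 in the luminal columns and to 22377 and 37204 in the basal ones. Bsecs had sums of 19194 luminal and 12553 basal, each between those of the luminal and basal columns, but its markers did not all lie between. The basal keratins Krt14 (8945) and Krt5 (3307) were above both basal columns, and the smooth muscle actin Acta2 (144) was far below them. Of the luminal markers Epcam (6553) was above KO luminal (5984), Krt19 (6449) and Krt18 (2559) were below both luminal columns and above both basal ones, and Kit was at 0. Pan-leukocyte markers (Ptprc, Cd52, Laptm5 and Coro1a) had 0 to 16 counts in all per column. Of 5 neutrophil markers 4 matched a symbol, and they summed to 185 counts in WT luminal, 181 of them S100a8, and to 0 to 9 in the other columns.

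Of the 6 genes 4 had their highest level in Bsecs, and the share of all genes highest there was not counted. RefSeq promoters were at hand for 3 of the 4, Serpinb2, Serpinb5 and Plaur. They are shown because these genes were high in the same column. Each sequence is the 250 bases before a RefSeq start, 5′ to 3′ on the gene's strand (GRCm38.p6, plus strand for all 3). The windows are chr1:107511173-107511422 for Serpinb2, chr1:106860925-106861174 for Serpinb5 and chr7:24462233-24462482 for Plaur. Capitals mark TGANTCA (a loosened AP-1 word, with any base at N), the TATA word TATAAA and the GC box GGGCGG, searched on both strands. RefSeq gives 2 starts for Serpinb2, and the one shown is also the start of a transcript tagged as principal in GENCODE M21. The Plaur and Serpinb5 starts do not fall on the exact base of such a start, and other GENCODE starts were not compared.
Serpinb2: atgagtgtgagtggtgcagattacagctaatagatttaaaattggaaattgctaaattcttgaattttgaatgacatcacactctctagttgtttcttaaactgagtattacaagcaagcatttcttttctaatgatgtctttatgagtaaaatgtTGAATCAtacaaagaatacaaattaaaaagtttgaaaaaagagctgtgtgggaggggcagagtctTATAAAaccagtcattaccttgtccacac
Serpinb5: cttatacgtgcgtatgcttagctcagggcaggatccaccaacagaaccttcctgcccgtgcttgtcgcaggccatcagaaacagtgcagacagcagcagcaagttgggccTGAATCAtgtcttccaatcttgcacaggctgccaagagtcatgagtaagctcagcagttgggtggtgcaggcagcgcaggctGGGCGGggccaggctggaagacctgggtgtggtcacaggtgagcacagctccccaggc
Plaur: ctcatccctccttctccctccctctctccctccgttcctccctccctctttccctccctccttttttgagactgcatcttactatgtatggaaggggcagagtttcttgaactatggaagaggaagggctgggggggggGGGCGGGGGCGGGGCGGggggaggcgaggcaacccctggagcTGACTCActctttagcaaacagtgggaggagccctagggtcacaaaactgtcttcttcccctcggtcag

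All 3 windows held TGANTCA once, at 94 to 88 bases before the start in Serpinb2, 140 to 134 in Serpinb5 and 69 to 63 in Plaur, and 6.75% of 32851 RefSeq windows of this length hold it. The match read TGAATCA in Serpinb2 and Serpinb5 and TGACTCA in Plaur, so only that in Plaur holds without the loosened base. The Serpinb2 window had TATAAA at 29 to 24 bases before the start, a word in 12.4% of windows, and it had 32.4% G and C. Counted from the other RefSeq start of Serpinb2, TATAAA lies at 116 to 111 and TGANTCA at 181 to 175, in a window of 38.4% G and C. The Plaur window had 3 GGGCGG words between 111 and 95 bases before the start, the last 2 sharing a base, and the Serpinb5 window 1, against 32.7% of windows with any. The cAMP response word TGACGTCA, in 1.55% of windows, was in none of the 3. The Serpine2 window (78.8% G and C, not printed) held 6 GGGCGG words and no TGANTCA. These are matches of letters, and binding was not measured. In all, 4 of the 6 genes matched a promoter entry, and Plau and Plat were not among them.

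Serpinb2 stood out among the 6. Its counts were 1180 in Bsecs, 83 in the larger basal column, 32 in WT luminal, 22 in KO luminal and 6 in the smaller basal column. On the common scale these were levels of 1243, 79.8, 28.6, 15.9 and 7.97. The Bsecs level lay far above the other 4, among which the larger basal column was highest, and the counting intervals of WT and KO luminal overlapped, as did those of KO luminal and the smaller basal column. Serpinb2 rose 155-fold (70.9 to 423) in Bsecs over the smaller basal column, with an adjusted p of 0.00362 (Benjamini-Hochberg over every gene's p-value in the authors' deposited table). Of the 6 genes 1 was called in that comparison, and of all 13698 genes 0.759% were.

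Against the other columns Serpinb2 had folds that missed the threshold. Bsecs had 80.5 times the KO luminal value (52.9 to 129, adjusted p = 0.0908), 45.4 times the WT luminal value (32.0 to 66.7, adjusted p = 0.196) and 15.6 times the larger basal value (12.5 to 19.8, adjusted p = 0.333), all adjusted in the same way over the authors' deposited p-values. All 4 comparisons share the Bsecs column, so they are not separate evidence. An edgeR exact test on the recovered counts with an assumed dispersion of 0.16 put Serpinb2 past 0.05 in each of the 4, with adjusted p from 1.14e-07 to 0.00127. That test calls many more of all genes, with the shares given further on.

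The basal columns also differed in Serpinb2 by more than counting error, with 6 counts in the smaller and 83 in the larger (9.88-fold, 4.35 to 27.7). The p in the authors' deposited table was 0.0494, and the adjusted p was 1. Luminal columns had 22 counts in KO and 32 in WT, a fold of 0.548 (0.303 to 0.972).

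**Figure D1:**
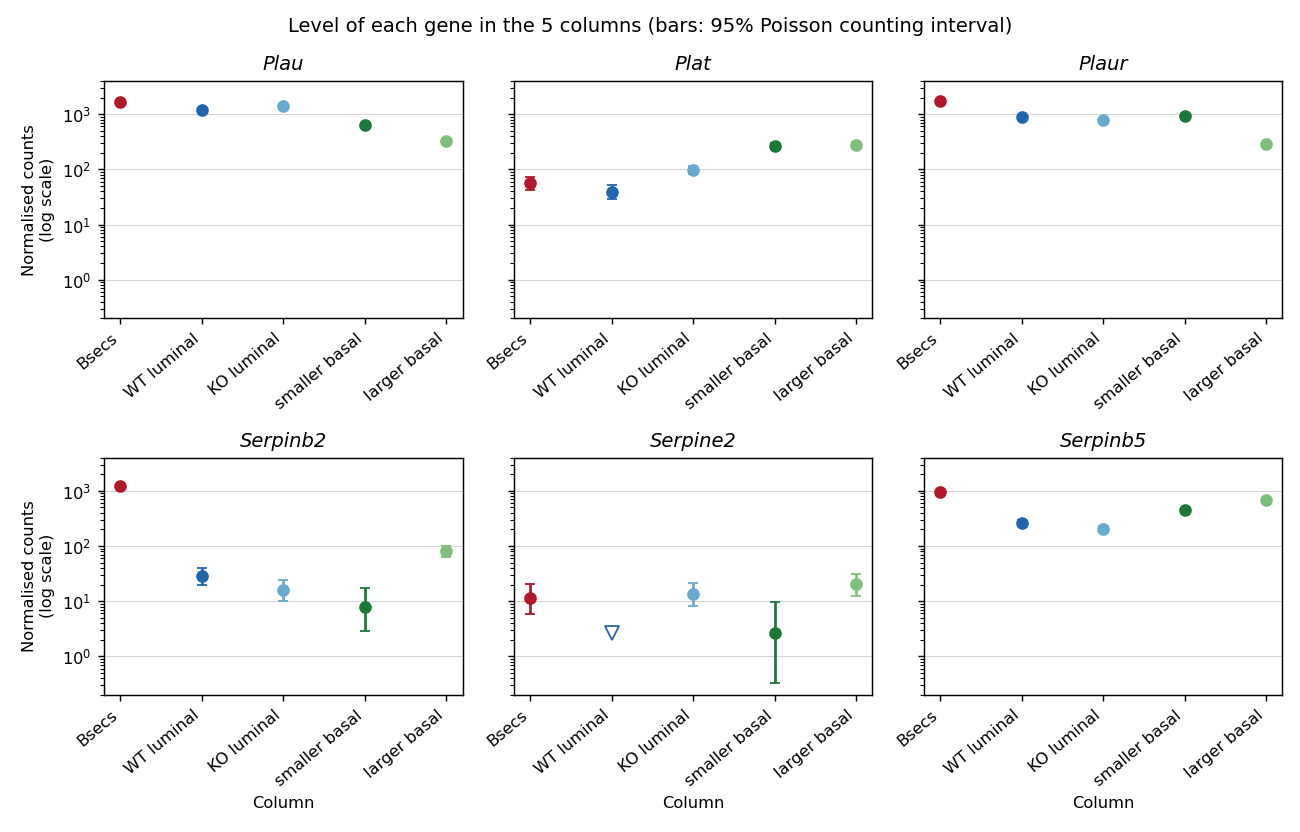
Level of each gene (normalised counts, log axis) in the 5 columns, with bars for 95% Poisson counting intervals and an open triangle at the floor of 3 counts where a column had 0. Serpinb2 was at 1243 in Bsecs and between 7.97 and 79.8 in the other columns, while Plat was highest in the basal columns.

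Serpinb2 is made in quantity by activated macrophages and by keratinocytes, so macrophage markers are given beside it. Of the 6 markers Emr1 and Fcgr1 had 0 counts in every column. Lyz2 had 0 in Bsecs, KO luminal and the larger basal column, where the sums thus came from Csf1r, Cd68 and Cd14. The list summed to a level of 85.3 in Bsecs, most of it Cd14 (73.8), to 469 and 601 in the WT and KO luminal columns, and to 58.4 and 33.7 in the smaller and larger basal ones. The Bsecs sum thus lay below both luminal columns and above both basal columns, and its part in Serpinb2 was not tested. Ptprc, the common leukocyte antigen, had 2 counts in Bsecs.

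Plau, the urokinase gene, was read at high level in Bsecs and in both luminal columns. Its counts were 1558 in Bsecs, 1954 in KO luminal, 1354 in WT luminal, 479 in the smaller basal and 338 in the larger basal column. The levels were 1642, 1412, 1209, 636 and 325 in that order, and no 2 neighbours had overlapping counting intervals on this scale. Scaled by totals without Rn45s, Bsecs was at 1473 and KO luminal at 1420. The luminal columns and Bsecs lay together above the basal columns. Bsecs had 5.07 times the larger basal value (4.50 to 5.72, p = 0.0941 in the authors' deposited table), 2.56 times the smaller basal value (2.31 to 2.84), 1.42 times WT luminal (1.32 to 1.52) and 1.20 times KO luminal (1.12 to 1.28). KO over WT luminal was 1.15 (1.07 to 1.23), and smaller over larger basal 1.98 (1.72 to 2.29). None passed adjustment, with an adjusted p of 1 by Benjamini-Hochberg over the authors' deposited p-values in each of the 6 comparisons.

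Plat, the tissue-type activator known for its role in fibrin clearance and made by endothelium among others, was highest in the basal columns. Its counts were 289 for the larger and 201 for the smaller basal column, 137 in KO luminal, 54 in Bsecs and 44 in WT luminal. The levels were 278, 267, 99.0, 56.9 and 39.3. The basal columns did not differ beyond counting error (0.974-fold, 0.809 to 1.17), nor did Bsecs and WT luminal (1.51-fold, 0.996 to 2.30). Bsecs had 4.87-fold less Plat than the larger basal column (3.63 to 6.63) and 4.73-fold less than the smaller (3.48 to 6.51), with p of 0.0863 and 0.104 in the authors' deposited table. KO luminal had 2.48 times the WT luminal value (1.75 to 3.57, p = 0.212 in the authors' deposited table). After adjustment of the authors' deposited p-values all were at 1.

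Endothelial markers were also highest in the basal columns and are given beside Plat. Their 6 genes summed to levels of 263 in the larger basal and 62.4 in the smaller basal column, and to 19.0 in Bsecs, 14.3 in WT luminal and 2.89 in KO luminal. Emcn had 0 counts in 4 columns and 1 in the larger basal column. The part of endothelial RNA in the Plat values was not tested.

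Within a column the activators can be compared per length of exon, with no scale between columns. Per kilobase, Plau was 31.1 times Plat in Bsecs (23.7 to 41.6), 33.2 times in WT luminal (24.6 to 45.9) and 15.4 times in KO luminal (12.9 to 18.4). It was 2.57 times Plat in the smaller (2.17 to 3.04) and 1.26 times in the larger basal column (1.07 to 1.48). Per kilobase, urokinase RNA was above that of the tissue-type activator in all 5 columns, by least in the basal ones. These ratios were chosen after the values were seen and use exon lengths of a later annotation than the authors' build.

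Plaur, the urokinase receptor, had 1642 counts in Bsecs, 1067 in KO luminal, 991 in WT luminal, 710 in the smaller basal and 297 in the larger basal column. The levels were 1730.1, 771, 885, 943 and 286. Bsecs was highest and the larger basal column lowest, with the other 3 close together, and the intervals of the smaller basal and WT luminal columns overlapped. Bsecs had 6.08 times the larger basal value (5.37 to 6.90, p = 0.0663 in the authors' deposited table), 2.31 times KO luminal (2.14 to 2.50), 2.04 times WT luminal (1.88 to 2.21) and 1.82 times the smaller basal value (1.67 to 1.99). Between the basal columns the smaller had 3.35 times the larger (2.92 to 3.85, p = 0.0371 in the authors' deposited table), and KO over WT luminal was 0.858 (0.786 to 0.936). Each adjusted p was 1 by Benjamini-Hochberg over the authors' deposited p-values, and the edgeR exact test with assumed dispersion put Plaur past 0.05 in Bsecs over the larger basal column (adjusted p = 0.0421).

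Plau and Plaur, enzyme and receptor, were both highest in Bsecs and lowest in the larger basal column, but they parted over the columns between. The smaller basal column was the second in order for Plaur, though not beyond counting error above WT luminal, and the fourth for Plau.

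Serpinb5, the maspin gene, was read with 897 counts in Bsecs, 708 in the larger basal, 336 in the smaller basal, 297 in WT luminal and 278 in KO luminal. The levels were 945, 681, 446, 265 and 201, with no overlap of counting intervals between neighbours. Both basal columns lay above both luminal ones and Bsecs above all on this scale. Scaled by totals without Rn45s, Bsecs was at 848 and the larger basal column at 780. Bsecs had 4.84 times the KO luminal value (4.23 to 5.56, p = 0.0929 in the authors' deposited table), 3.72 times WT luminal (3.26 to 4.25), 2.10 times the smaller basal (1.85 to 2.39) and 1.39 times the larger basal value (1.26 to 1.54). KO over WT luminal was 0.746 (0.631 to 0.881), and smaller over larger basal 0.664 (0.582 to 0.758). All had an adjusted p of 1 by Benjamini-Hochberg over the authors' deposited p-values.

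Serpine2, which inhibits thrombin, plasmin and both activators, was close to the limit of these counts. It had 21 counts in the larger basal column, 19 in KO luminal, 11 in Bsecs, 2 in the smaller basal column and 0 in WT luminal. The levels were 20.2, 13.7, 11.6, 2.66 and 0, where the floor of 3 counts in WT luminal is a level of 2.68 and the upper Poisson limit of its 0 counts is 3.29. Neighbours in this order had overlapping counting intervals throughout. With WT luminal set at the floor of 3 counts, KO luminal was 5.05-fold and Bsecs 4.51-fold higher. The lower 95% counting limits of these folds were 3.72 and 3.09, and p was 0.117 and 0.267 in the authors' deposited table. The smaller basal column had 0.133 times the larger (0.0152 to 0.545). Fibroblasts make much Serpine2, and the 6 fibroblast markers summed to 2123 in the larger basal, 989 in KO luminal, 816 in WT luminal, 380 in the smaller basal and 327 in Bsecs. Dcn alone was at 983 in KO and 775 in WT luminal, where Col1a1 and Col1a2 had 0 or 1 count in KO and 13 and 0 in WT. The part of fibroblast RNA in Serpine2 was not tested.

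**Figure D2:**
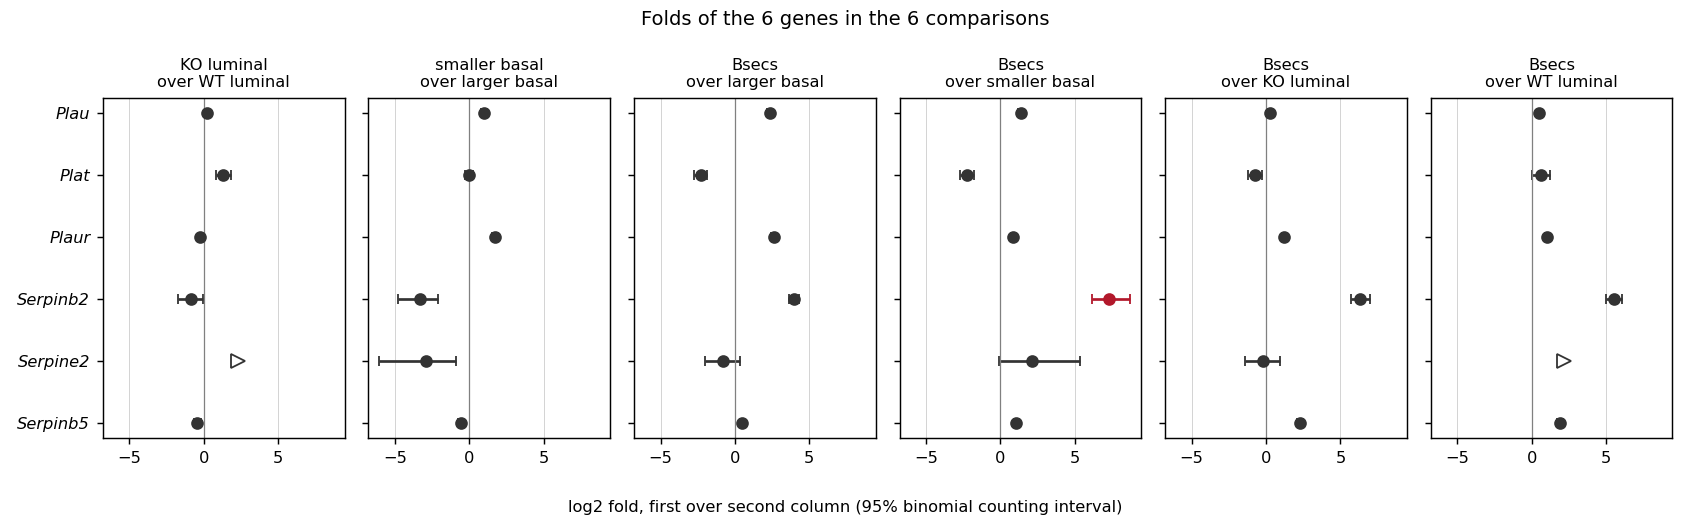
Log2 folds of the 6 genes in the 6 comparisons, first column over second, with 95% binomial counting intervals, open arrows for lower bounds against 0 counts, and red for an adjusted p under 0.05. The red point is Serpinb2 in Bsecs over the smaller basal column, at 155-fold.

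Counted over the 6 genes, 1 was called in Bsecs over the smaller basal column and 0 in each of the other 5 comparisons, called meaning an adjusted p below 0.05 over every gene of the table. The shares of all genes called were 0.48% of 14986 in Bsecs over the larger basal column, 0.0405% of 14800 over KO luminal, 0.21% of 14304 over WT luminal, 0.0882% of 14736 in KO over WT luminal and 0.0274% of 14595 between the basal columns. With no adjustment, at a p under 0.05 in the authors' deposited table, there was 1 gene (Serpinb2) in each Bsecs comparison, 2 between the basal columns (Plaur, Serpinb2) and 0 between the luminal columns. Of all genes that threshold took 4.61% in Bsecs over the larger and 4.91% over the smaller basal column, 3.82% over KO luminal, 4.29% over WT luminal, 3.09% between the basal columns and 3.74% between the luminal ones. The edgeR exact test with assumed dispersion called 2 in Bsecs over the larger basal column, 1 in each of the other Bsecs comparisons and 0 in the remaining 2. Its shares of all genes were 8.52% and 10.2% over the larger and smaller basal columns, 11.1% over KO luminal, 13.8% over WT luminal, 2.4% between the basal columns and 1.54% between the luminal ones. With the median log2 fold of values plus 1 over the 6 genes, Bsecs stood at 1.41 over the larger and 1.21 over the smaller basal column, 0.73 over KO luminal and 1.46 over WT luminal. The same medians over all genes tested were -0.21, 0.10, -0.21 and -0.09. The 6 genes had a median of -0.01 in KO over WT luminal and -0.31 between the basal columns, against 0.10 and -0.29 over all genes. Because the 6 genes were chosen with earlier results of these data known, these medians describe them and carry no test.

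Compared per kilobase of exon, the order of the 6 genes differed between columns. In Bsecs the levels per kilobase were 1149 for Plaur, 701 for Plau, 604 for Serpinb2, 344 for Serpinb5, 22.5 for Plat and 5.24 for Serpine2. In the larger basal column they were 248 for Serpinb5, 189.6 for Plaur, 139 for Plau, 110.1 for Plat, 38.8 for Serpinb2 and 9.14 for Serpine2. In WT luminal cells Plaur (588) and Plau (516) were followed by Serpinb5 (96.4), Plat (15.6) and Serpinb2 (13.9). In KO luminal the first 3 were Plau (603), Plaur (512) and Serpinb5 (73.1), and in the smaller basal column Plaur (626), Plau (271.5) and Serpinb5 (162). Receptor and urokinase were the leading pair in 4 columns, and maspin led in the larger basal column.

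The wider system was read from a list of 49 further genes, of which 47 matched a symbol and 36 to 42 had counts in a given comparison. None passed an adjusted p under 0.05 in any of the 6 comparisons (Benjamini-Hochberg over the authors' deposited p-values). At a p under 0.05 in the authors' deposited table, unadjusted, Bsecs over the larger basal column gave 4 higher and 2 lower of 42 with counts. Over the smaller it gave 4 and 3 of 36, over KO luminal 0 and 1 of 39, and over WT luminal 0 and 1 of 38. Between the luminal columns, of 37 genes, 0 were higher and 2 lower in KO. Between the basal columns, of 41 genes, 1 was higher and 2 lower in the smaller. Of all genes that threshold took 4.61%, 4.91%, 3.82%, 4.29%, 3.74% and 3.09% in that order. By the edgeR exact test with assumed dispersion 0 to 12 passed per comparison, and of all genes it called 1.54% to 13.8%.

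Of genes of the list known for expression in liver, some were at or near 0 and others were not. Plg, plasminogen, had 2 counts in KO luminal, 1 in Bsecs and 0 in the other columns, and Serpinf2 (the plasmin inhibitor alpha-2-antiplasmin), Cpb2, F12 and Habp2 had 0 in all. Serpinc1, antithrombin, had 34 counts in KO luminal and 0 to 4 in the other columns, and the C1 inhibitor gene Serping1 is given further on. At the cell surface, genes for a plasminogen docking complex were read throughout. Anxa2 (annexin A2) was at levels of 6015 in Bsecs, 4896 in KO luminal, 3817 in WT luminal, 2122 in the smaller basal and 1444 in the larger basal column. Its partner S100a10 was at 1824 in the smaller basal column and 860 to 1266 elsewhere.

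The serpins Serping1 and Serpinf1 were highest in the basal columns. For Serpinf1 the counting intervals of the larger and smaller basal columns overlapped. Serping1, the C1 inhibitor, had 543 counts in the larger basal column and 27 in Bsecs, 18.3-fold fewer on the table's scale (12.4 to 28.0, p = 0.00275 in the authors' deposited table). Its adjusted p was 0.224 by Benjamini-Hochberg over the authors' deposited p-values. Serpinf1 (PEDF) was 10.8-fold lower in Bsecs than in the larger (6.37 to 19.7) and 9.57-fold lower than in the smaller basal column (5.56 to 17.7). Serping1 was at levels of 522 (larger basal), 218 (smaller basal), 28.4 (Bsecs), 18.8 (WT luminal) and 8.67 (KO luminal). Taking the columns in that order, Serpinf1 was at 171, 150, 15.8, 14.3 and 3.61. The fibroblast marker sums, again in that order, were 2123, 380, 327, 816 and 989. Their part in these 2 serpins was not tested.

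Coagulation and receptor genes with a link to this system also differed between columns. F3, tissue factor, which starts coagulation, had 18939 counts in Bsecs, 11330 in KO luminal, 5374 in WT luminal, 314 in the smaller basal and 234 in the larger basal column. Bsecs had 89.0 times the larger basal value (78.3 to 102) and 47.5 times the smaller (42.5 to 53.3), with p of 0.121 and 0.0890 in the authors' deposited table. F2rl1 (PAR2), a protease-activated receptor, was at 1296 in Bsecs, 711 in KO luminal, 484 in WT luminal, 178 for the larger basal and 146 for the smaller basal column. F2r (PAR1), the thrombin receptor, had 168 counts in the smaller basal, 58 in the larger basal, 19 in Bsecs, 1 in WT luminal and 0 in KO luminal. It was 11.2-fold lower in Bsecs than in the smaller basal column (6.97 to 19.1, p = 0.0232 in the authors' deposited table), and 4.06 times as high in the smaller as in the larger basal column (2.99 to 5.56).

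Membrane serine proteases and an inhibitor of theirs were highest in a luminal column. St14 (matriptase), which can activate urokinase, was at 1453 in KO luminal, 1183 in Bsecs, 783 in WT luminal, 99.0 in the larger basal and 50.5 in the smaller basal column. KO luminal had 1.83 times the WT luminal value (1.69 to 1.98). Its inhibitor Spint1 was at 1082 and 804 in KO and WT luminal, 330 in Bsecs, 120.2 in the larger basal and 43.8 in the smaller basal column. Tmprss2 had 2276 counts in WT luminal, 1019 in KO luminal, 117 in Bsecs, 6 in the larger basal and 0 in the smaller basal column. Bsecs had 15.8-fold less Tmprss2 than WT luminal (13.1 to 19.2) and 5.81-fold less than KO luminal (4.79 to 7.09), yet 21.4 times the larger basal value (9.56 to 59.6). With the smaller basal column set at the floor of 3 counts, Bsecs had 30.7-fold more Tmprss2, with a lower 95% counting limit of 24.6. KO luminal had 2.80-fold less than WT luminal (2.60 to 3.02, p = 0.0366 in the authors' deposited table). Prss8 (prostasin) was 8.81-fold lower in Bsecs than in KO luminal (5.76 to 14.1) and 1.94 times as high in KO as in WT luminal (1.57 to 2.41). Met, the receptor for hepatocyte growth factor, which matriptase can activate, was 5.17-fold lower in Bsecs (4.67 to 5.74) and 2.71-fold lower in KO luminal (2.54 to 2.90) than in WT luminal. Each of these had an adjusted p of 0.141 or more by Benjamini-Hochberg over the authors' deposited p-values, the lowest being Tmprss2 in Bsecs over the smaller basal column.

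Integrins and uptake receptors that bind the urokinase receptor or clear its complexes varied too. Itga3 was at 5566 in the smaller basal column, 2584 in Bsecs, 1150.1 in the larger basal and 743 and 402 in KO and WT luminal, and smaller over larger basal was 4.91 (4.60 to 5.24, p = 0.0102 in the authors' deposited table). Bsecs had 6.71 times the WT luminal Itga3 value (6.06 to 7.43). Itga5, of the fibronectin receptor, was highest in the smaller (2266) and larger (1075) basal columns, followed by Bsecs (630.1), WT luminal (267) and KO luminal (107), and Bsecs had 6.06 times the KO luminal value (5.05 to 7.31). Vldlr, which takes up serpin and protease complexes, was at 398 in Bsecs and 365 in the larger basal column and at 62.5 to 98.2 in the other 3, with a 3.67-fold lower value in the smaller than in the larger basal column (2.85 to 4.77). Pdgfc, a growth factor activated by Plat, was 4.86-fold lower in the smaller than in the larger basal column.

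**Figure D3:**
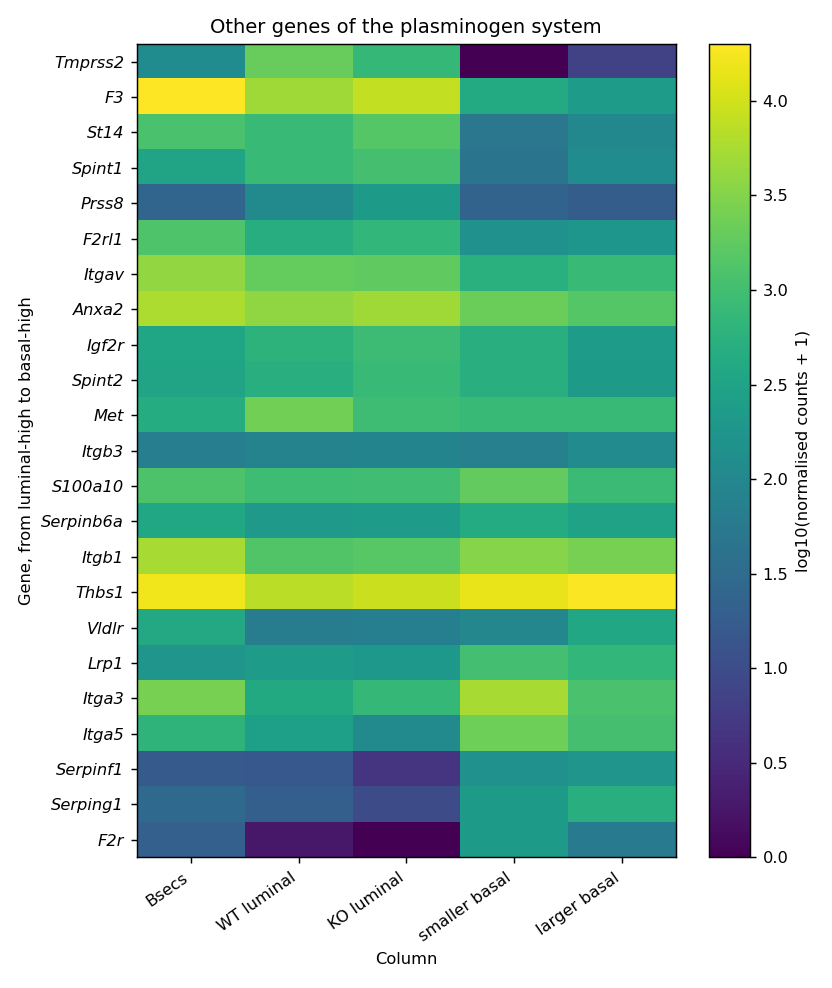
Levels of the 23 further plasminogen system genes with a mean of at least 50 normalised counts over the columns, as log10 of normalised counts plus 1, ordered from luminal-high to basal-high. Tmprss2, F3 and St14 lead the luminal end and Serpinf1, Serping1 and F2r close the basal end.

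Serpinb2 and Serpinb5 belong to the clade B serpins, and in RefSeq both lie on mouse chromosome 1 in a run of 12 protein-coding serpins that Serpinb5 opens and Serpinb8 closes. Of these 12, 7 had 0 counts in every column and 3 exceeded 50 counts in any. The 0 counts for Serpinb3a, Serpinb3b, Serpinb3c and Serpinb3d are uncertain, since reads from near-identical copies can be lost in counting. Serpinb8, at the end of the run and 2 genes from Serpinb2, had 94 counts in Bsecs, 23 in KO luminal, 11 in WT luminal, 7 in the larger basal and 6 in the smaller basal column. That is a level of 99.04 in Bsecs and 6.73 to 16.6 elsewhere, so it was highest in the same column as Serpinb2. Bsecs had 14.8 times the larger basal value (6.89 to 37.7, p = 0.0322 in the authors' deposited table), 10.5 times WT luminal (5.62 to 21.8) and 6.13 times KO luminal (3.85 to 10.1), with adjusted p of 0.884 for the first and 1 for the others by Benjamini-Hochberg over the authors' deposited p-values. Serpinb10, between them, had 13 counts in Bsecs, 8 in the smaller basal column, 1 in KO luminal and 0 in the others. The neighbour on the far side of Serpinb5, Vps4b, was at levels of 167 to 368.

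**Figure D4:**
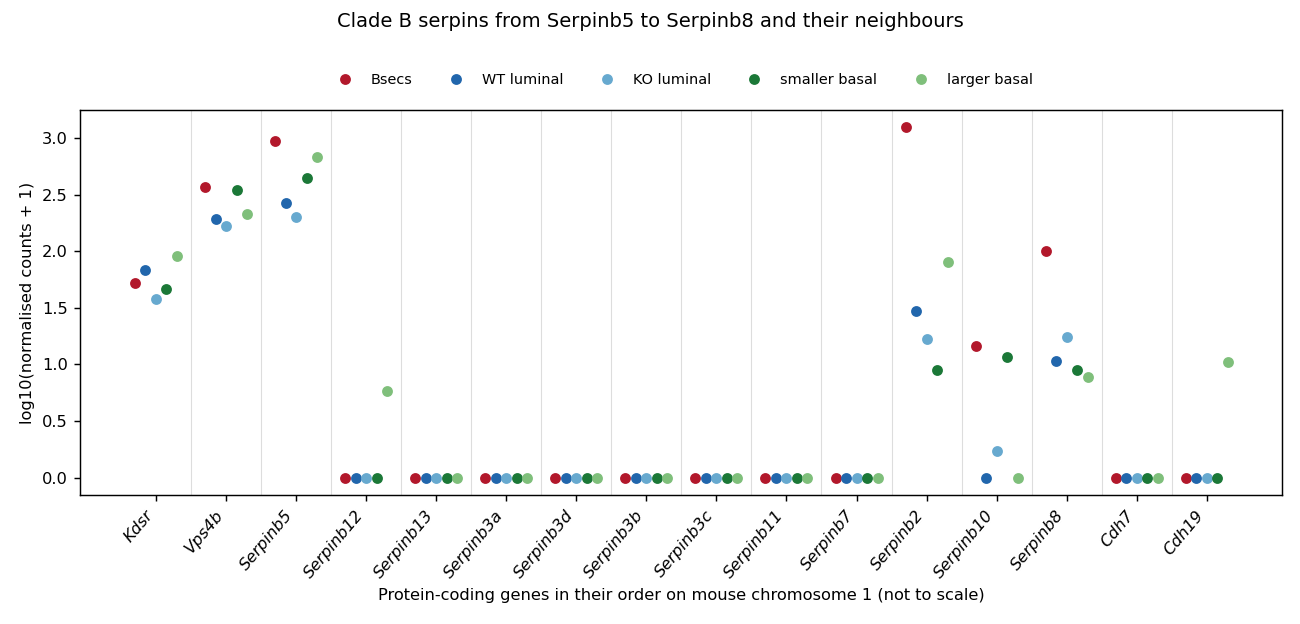
Levels (log10 of normalised counts plus 1) of protein-coding genes in their order on chromosome 1, not to scale, with 1 point per column. Serpinb5, Serpinb2 and Serpinb8 are read above 50 counts, each highest in Bsecs. The 12 serpins run from Serpinb5 to Serpinb8, and 7 of them are at 0 in all columns.

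Of the 27 clade B serpins sought, all matched a symbol and 8 to 14 had counts in a given comparison. Serpinb2 in Bsecs over the smaller basal column was the only call, in a comparison that called 0.759% of all genes. Serpinb6a, an intracellular serpin with close paralogs that may share its reads, ranged from 212 in WT luminal to 443 in the smaller basal column. Serpinb9, the granzyme B inhibitor, had 153 counts in the larger basal and 9 in the smaller basal column (12.1-fold, 6.23 to 27.1, p = 0.00918 in the authors' deposited table), 99 in WT luminal, 34 in KO luminal and 27 in Bsecs. Against the larger basal column Bsecs had 5.15-fold less (3.41 to 8.07), and KO luminal had 3.65-fold less than WT luminal (2.45 to 5.57).

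The genes nearest to each of the 6 in pattern were found by the Euclidean distance between centred log2 profiles over the 5 columns, among 6455 genes with a mean level of at least 50. Serpinb2 had the most distant neighbours of the 6. They were the adhesion molecule Chl1 (distance 2.07), the matrix protein Tnc (2.41) and Rnf43, a ubiquitin ligase of the Wnt pathway (2.74). Tnc was at 6534 in Bsecs and 132 to 514 in the other columns. Plat was nearest to the transcription factor Tcf7 (0.18), then Fermt1 (0.46) and Cep170 (0.52). Serpinb5 was nearest to Pcgf3 (0.14), Golim4 (0.25) and the actin bundler Pls3 (0.27). Plau was nearest to Rab31 (0.33), Samm50 (0.35) and the matricellular gene Cyr61 (0.37), and Plaur to Polr2j (0.25), Ddx41 (0.27) and Mrpl43 (0.27). Serpine2, with its few counts, had B4galt5 (1.22), Dlc1 (1.34) and Rpl3 (1.40). Distances over 5 columns rank genes and carry no test.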

How the data were processed

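RNA of sorted cells was extracted with TRIzol, turned into cDNA with the Ovation RNA-seq V2 system and made into libraries with the Ultralow DR kit of that maker (per the labels' protocols). The tools were STAR and DESeq on mm9, per the submitters' processing notes, while the sources used here give no versions, counter, annotation or strand. The authors deposited 6 tables of 24000 rows with the mean signal of 2 groups (normalised counts, per the file headers) and unadjusted p-values. The files hold 1 mean per group in place of library columns. Dividing by the smallest value of a column gave whole reads for 100% of values. Date-like (27) and duplicated (4) rows were left out per gene.

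Deposited p-values were adjusted by Benjamini-Hochberg over all genes of a table and called at 0.05. Fold intervals are exact binomial (Clopper-Pearson) and level intervals exact Poisson, both 95%, and a count of 0 was placed at a floor of 3 counts. The common scale uses median-of-ratios factors over 9776 genes read in all 5 columns. 1 item is not reported here. The 6 genes and the lists were chosen with earlier results of these data known. Of the lists, the genes named were any past 0.05 and, per comparison, the 2 largest folds each way among means of at least 50, plus 3 nearest genes in pattern for each of the 6, with further names picked once values were known. The alternatives were edgeR 4.0.16 (exact test, dispersion set to 0.16, and TMM), totals without Rn45s and a filter at a mean of 10. The steps were run on simulated counts, drawn for the edgeR test with the same dispersion of 0.16, so that value was not checked. Exon lengths are from GENCODE M21, of GRCm38, so no mm9 coordinates are given.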

Additional observations from a re-analysis of the deposited data

How the results depend on the processing

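The number of the 6 genes highest in Bsecs was 4 on each scale tried (median-of-ratios, TMM, totals without Rn45s), with no share of all genes to set beside it. On totals without Rn45s the leads of Plau and Serpinb5 became small. Plau was at 1473 in Bsecs and 1420 in KO luminal, and Serpinb5 at 848 in Bsecs and 780 in the larger basal column. Counting intervals on that scale were not computed. Of 72 folds of the 6 genes recomputed on 2 other scales, 13 left their counting interval and 0 changed sign, and of 64 folds of the other genes named from the lists 0 changed sign. Totals without Rn45s moved every log2 fold by -0.36 in Bsecs over the larger basal column, -0.20 over the smaller, -0.21 over KO luminal, -0.32 over WT luminal, -0.17 between the basal columns and -0.08 between the luminal ones. TMM moved them by -0.03 to 0.01. Adjusting only over genes with a mean of at least 10 left every count of calls as it was. With edgeR's exact test, run at a dispersion of 0.16, more were called. For the 6 genes it called 2 in place of 0 in Bsecs over the larger basal column and 1 in place of 0 over each luminal column. For the wider system list it called 11 of 42 genes with counts over the larger basal column and 12 of 36 over the smaller. Over KO luminal it called 7 of 39, over WT luminal 9 of 38, and between the basal columns 2 of 41. Each of these counts was in place of 0. Of all genes it called 8.52%, 10.2%, 11.1%, 13.8% and 2.4% in that order. For the clade B serpins it called 2 of 13 in place of 0 over the larger and 2 of 10 in place of 1 over the smaller basal column. Over KO and WT luminal it called 1 of 9 and 4 of 9 in place of 0, and between the basal columns 1 of 14 in place of 0. The lists overlap, so these counts are not separate. Serpinb2 and Serpinb5 are also among the 6 genes, and Serpinb6a and Serpinb8 are also in the wider system list. Over both basal columns the clade B calls were Serpinb2 and Serpinb8. That dispersion was assumed and not measured. No paired analysis was possible because the columns carry no replicate numbers, and for the same reason no library could be left out. Among the 6 genes, depth limits Serpine2, at 0 to 21 counts, and Serpinb2 outside Bsecs, at 6 to 83 counts. The 155-fold value of Serpinb2 rests on 6 counts in the smaller basal column.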
